A study of Mus musculus with 36 samples.

Results

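Complement genes were measured in primary mouse fibroblasts of the cornea, the skin and the tendon, kept in static medium or under flow. The genes are C3, C4b, Cfb, Serping1, Masp1, C2 and Cd59a, and their members on the arrays are the probe sets annotated to exactly 1 of these symbols. Of the 7 genes, 5 had such a probe set, 12 probe sets in all, out of 18193 genes and 35041 probe sets with 1 symbol. C3 is not the symbol of any probe set in the annotation used, and the probe set of C4b also carries the symbol C4a, so both genes were not analysed here. The fibroblasts came from CD1 fetuses at day 19 of gestation and, after 5 population doublings in culture, were seeded on glass coated with gelatin. Static plates lay under medium with 2% FCS for 14 h, and flow plates spent the same time under laminar flow with a shear of 0.1 dyn/cm2. With 3 libraries per tissue and state there were 6 groups and 18 libraries, each amplified from 100 ng of RNA and hybridised to both Affymetrix MOE430 arrays, A and B. The submitters call the replicates biological without saying if each was a separate fetus or litter, and the p-values therefore cover only the spread between these libraries. These are cells after culture and expansion, and in bulk RNA fewer cells of a type and less RNA per cell cannot be told apart.

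Complement is a cascade of proteases in plasma and tissue fluid that marks surfaces and opens membranes. In the classical and lectin pathways, C1s or MASP-2 cuts C4 and C2, whose pieces form the enzyme that cleaves C3. In the alternative pathway factor B (Cfb) takes the place of C2. C1 inhibitor (Serping1) blocks C1r, C1s, MASP-1 and MASP-2, and CD59 stops the membrane attack complex on the cell's own surface. Most plasma complement comes from the liver, but fibroblasts also make several components, C1 inhibitor among them.

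Values are the deposited RMA levels in log2 units. Differences are log2 differences ± SE from 1 limma model of all 6 groups, and adjusted p-values are Benjamini-Hochberg values over all 18193 genes, with a gene called at an adjusted p below 0.05. The median level of an array was 7.19 to 7.28 on chip A and 5.90 to 5.99 on chip B. On the second principal component of all genes, tendon static 3 lay at 43, away from the other libraries (-21.9 to 15.9). The scan record of skin static 2 carries a remark on possibly more concentrated material. A text field of the tendon flow arrays says cornea, whereas their titles and scan records say tendon, and they were analysed as tendon. The scan records put 5 libraries in an earlier batch (the replicate 1 libraries of both tendon and both skin groups and of cornea under flow), and 13 libraries in a later one. All 10 fibroblast markers lay above the 25th percentile of chip levels. So did 7 of 13 leukocyte, 2 of 8 endothelial, 4 of 10 epithelial and 5 of 7 muscle markers. The same held for 3 of 5 adipocyte and liver-like and 5 of 5 Schwann and melanocyte markers, so this cutoff alone does not separate cell types. Of the markers of the tissues, Aldh1a1, Foxc1 and Foxc2 were higher in cornea than in skin, Mkx, Fmod and Thbs4 were higher in tendon than in skin, and Twist2, Prdm1 and Tbx15 were higher in skin than in cornea, in static culture. Several of these did not mark 1 tissue: Fmod was also higher in static cornea than in static skin (0.89 ± 0.17, limma adjusted p 0.00649), Twist2 and the skin marker Crabp1 were higher in static tendon than in static cornea (adjusted p 0.000105 and 0.00409), and Crabp1 read 9.89 to 10.36 in static tendon beside 9.03 to 9.23 in static skin. Scx read 5.80 to 6.45 in static cornea and 5.39 to 5.75 in static tendon. The defining genes Kera of the cornea and Scx of the tendon lay below the 25th percentile, as did Dpp4 and Lef1 of the dermis.

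Masp1 encodes a protease that circulates with mannose-binding lectin and ficolins, and alternative splicing also gives MASP-3 and the inhibitor MAp44. Its level was highest in corneal fibroblasts. In static culture its probe set 1438602_s_at read 12.51, 11.84 and 12.13 in cornea, 10.83, 10.79 and 9.85 in tendon, and 9.29, 10.72 and 9.20 in skin. Under flow it read 11.72, 11.94 and 12.03 in cornea, 10.51, 10.38 and 9.93 in tendon, and 9.10, 10.93 and 9.01 in skin. All 6 corneal libraries lay above the 12 others, while tendon and skin overlapped because skin replicate 2 stood above the rest of its group in both states. Masp1 was 5.36-fold higher in static cornea than in static skin, a log2 difference of 2.42 ± 0.45 (limma adjusted p 0.00607), and 4.64-fold higher under flow (2.22 ± 0.45, adjusted p 0.012). Against tendon the corneal level was higher by 1.67 ± 0.45 in static culture (95% interval 0.721 to 2.62, limma adjusted p 0.066) and by 1.63 ± 0.45 under flow (adjusted p 0.0961), which misses the threshold in both states.

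The skin libraries numbered 2 share a culture day and stood apart in Masp1. They lay 0.983 (static) and 1.25 (flow) above their group means. With both left out, Masp1 was also called against tendon, at 1.67 in static culture (limma adjusted p 0.000853) and 1.63 under flow (0.00124), and tendon passed skin by 1.24 (0.0287) and 1.21 (0.0443). Leaving out either skin library of that day was enough for the static and the flow call against tendon, and over the 18 fits without 1 library the adjusted p ran from 0.0115 to 0.291 and from 0.0184 to 0.376. The static call against skin held in all 18 such fits (adjusted p 0.000605 to 0.0451). The flow call against skin was lost without cornea flow 3 (adjusted p 0.0534), skin flow 1 (0.0888) or skin flow 3 (0.0815). Within the later scan batch the differences from skin were 2.20 (static) and 2.01 (flow), not called with these 13 libraries alone (adjusted p 0.105 and 0.278). In the earlier batch the flow difference was 2.62, with 1 library on each side, and static cornea had no library there.

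**Figure D1:**
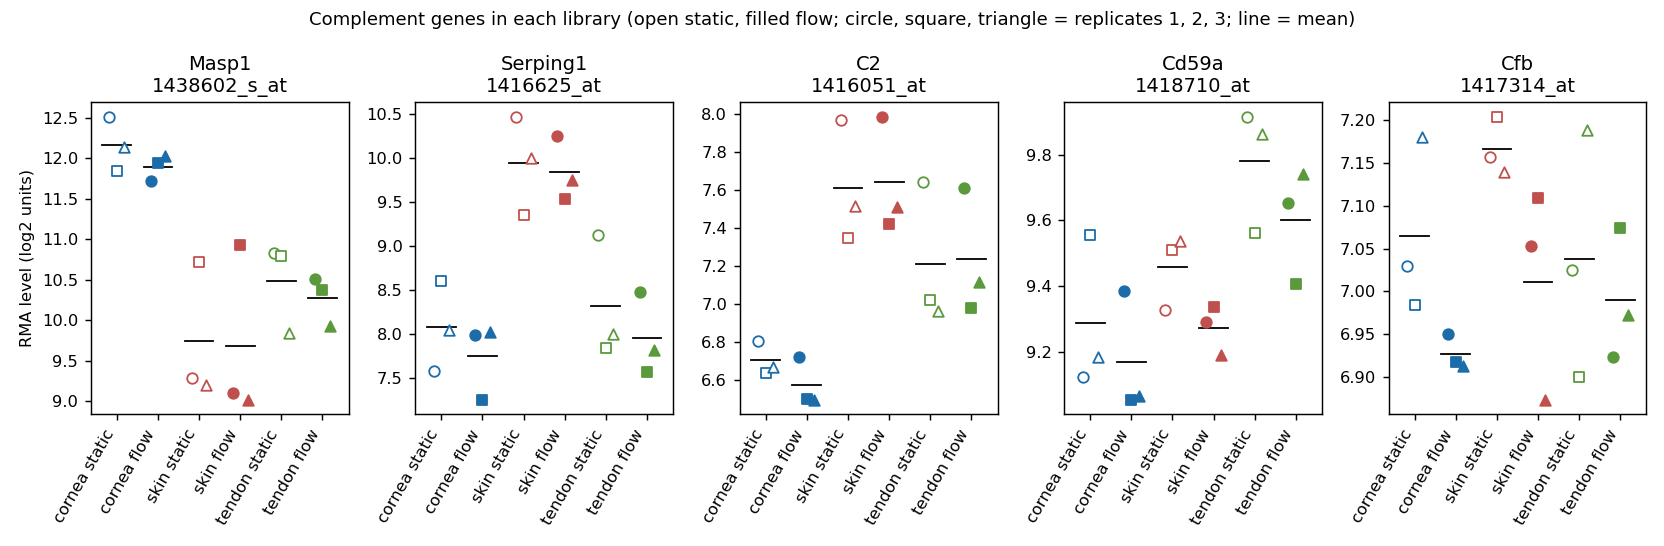
RMA level in log2 units of the 5 measured complement genes in each of the 18 libraries, by tissue and state, with a scale of its own for each gene. Open symbols are static and filled symbols flow libraries, circle, square and triangle are replicates 1, 2 and 3, and the line is the group mean. All 6 corneal libraries lie above the others for Masp1, all 6 skin libraries above the others for Serping1, and all 6 corneal libraries below the others for C2.

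Masp1 has 5 probe sets, all on chip A, and they did not read the same difference. Fitted with all 35041 probe sets, of which 1.91% were called between static cornea and static skin and 1.50% under flow, 3 of the 5 were called in both states. The other bright set, 1425985_s_at, ranged from 11.76 to 11.94 in static cornea, 9.71 to 10.45 in static tendon and 8.81 to 10.19 in static skin. Static cornea exceeded static skin by 2.50 ± 0.39 on this set (limma adjusted p 0.0017), and flow cornea exceeded flow skin by 2.06 ± 0.39 (adjusted p 0.0094). On 1438603_x_at, whose suffix marks probes that can match other transcripts, the differences were 1.03 ± 0.19 (adjusted p 0.00602) and 1.26 ± 0.19 (adjusted p 0.00101). The remaining sets, 1419677_at and 1455346_at, gave 0.06 and 0.24 in static culture and 0.21 and 0.34 under flow, with limma adjusted p between 0.597 and 0.965. The level of 1419677_at was 6.22 to 7.18 over all libraries, and that of 1455346_at was 4.54 to 5.52. Which splice form each set reads was not analysed here.

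Against tendon, 2.22% of all probe sets were called in static culture and 1.36% under flow. In static culture, 1 of the 5 Masp1 sets was called, 1425985_s_at with 1.76 ± 0.39 (limma adjusted p 0.0222). Under flow it was 1438603_x_at, with 0.88 ± 0.19 (adjusted p 0.023), while 1425985_s_at gave 1.42 ± 0.39 (adjusted p 0.108).

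C2 is the protease that, cut by C1s or MASP-2, supplies the catalytic piece of the C3-cleaving enzyme. Its probe set 1416051_at read 6.80, 6.64 and 6.67 in static cornea, 7.96, 7.34 and 7.51 in static skin, and 7.64, 7.02 and 6.96 in static tendon. Under flow the levels were 6.72, 6.50 and 6.49 in cornea, 7.98, 7.42 and 7.51 in skin, and 7.61, 6.98 and 7.11 in tendon. Every corneal library lay below every skin and tendon library, and the skin and tendon libraries overlapped. C2 was 1.87-fold higher in static skin than in static cornea, a cornea minus skin difference of -0.90 ± 0.21 (limma adjusted p 0.0281), and 2.10-fold higher under flow (-1.07 ± 0.21, adjusted p 0.00974). Cornea minus tendon was -0.50 ± 0.21 (limma adjusted p 0.307) in static culture and -0.66 ± 0.21 (0.192) under flow. Tendon minus skin was -0.40 ± 0.21 in both states (adjusted p 0.635 and 0.874).

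In static culture the C2 call was lost in 5 of the 18 fits that left out 1 library, without cornea static 1 (limma adjusted p 0.0606), 2 (0.11) or 3 (0.0795) and without skin static 1 (0.181) or 3 (0.0689). Under flow it was lost without skin flow 1 (adjusted p 0.0772), and the 18 fits gave adjusted p from 0.0143 to 0.181 in static culture and from 0.00465 to 0.0772 under flow. The cornea minus skin difference in the later scan batch was -0.726 in static culture and -0.970 under flow, and in the earlier batch it was -1.26 under flow.

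Chip B carries 2 more probe sets of C2, both with the suffix for probes that can match other transcripts. On 1457664_x_at the corneal libraries ranged from 6.37 to 6.47 in static culture and from 6.06 to 6.38 under flow, and the skin libraries from 7.30 to 8.02 and from 7.67 to 8.30. This set gave cornea minus skin differences of -1.30 ± 0.23 (limma adjusted p 0.00526) and -1.71 ± 0.23 (0.000481), and it was also called against tendon, at -0.93 ± 0.23 (0.0449) and -1.20 ± 0.23 (0.0109). The other set, 1441912_x_at, gave -0.45 ± 0.17 (limma adjusted p 0.295) and -0.47 ± 0.17 (0.319) against skin. Its corneal libraries still lay below all skin libraries in both states, and it has the highest mean of the 3 sets. With that set standing for the gene, C2 was not called against skin (limma adjusted p 0.262 static, 0.27 flow).

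Cfb, the alternative-pathway counterpart of C2 and its neighbour in the class III region of the major histocompatibility complex, showed the smallest spread of the 5 genes. In static culture its probe set 1417314_at read 7.03, 6.98 and 7.18 in cornea, 7.16, 7.20 and 7.14 in skin, and 7.03, 6.90 and 7.19 in tendon. Under flow it read 6.95, 6.92 and 6.91 in cornea, 7.05, 7.11 and 6.87 in skin, and 6.92, 7.07 and 6.97 in tendon. The tissues overlapped in both states. Its 6 tissue differences lay between -0.13 and 0.03 with an SE of 0.10 each, and their limma adjusted p-values were 0.835 or more. The interval of static cornea minus static skin ran from -0.322 to 0.118, so a measured difference of the size of C2 lay outside it. The Cfb levels lay near or below the array medians of chip A (7.19 to 7.28). Without detection calls, a background reading cannot be told from an even transcript level, so equal Cfb expression was not shown.

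Serping1, the gene of C1 inhibitor, was highest in skin fibroblasts. Its probe set 1416625_at read 10.47, 9.35 and 10.00 in static skin, 7.58, 8.60 and 8.04 in static cornea, and 9.12, 7.83 and 8.0 in static tendon. Under flow it read 10.25, 9.53 and 9.74 in skin, 7.98, 7.24 and 8.01 in cornea, and 8.47, 7.57 and 7.81 in tendon. No skin library fell as low as any library of cornea or tendon, and cornea and tendon overlapped. Serping1 was 3.65-fold higher in static skin than in static cornea (cornea minus skin -1.87 ± 0.37, limma adjusted p 0.00918) and 4.26-fold higher under flow (-2.09 ± 0.37, adjusted p 0.00411). It was 3.08-fold higher in static skin than in static tendon (tendon minus skin -1.62 ± 0.37, limma adjusted p 0.0361) and 3.70-fold higher under flow (-1.89 ± 0.37, adjusted p 0.0149). Cornea minus tendon was -0.24 ± 0.37 (95% interval -1.02 to 0.535) in static culture and -0.20 ± 0.37 (-0.984 to 0.574) under flow.

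Under flow, the Serping1 difference between cornea and skin was called in all 18 fits that left out 1 library (limma adjusted p 0.00136 to 0.0315). The static one was lost without cornea static 1 (adjusted p 0.0519) or skin static 1 (0.0723). The static call between tendon and skin was lost in 7 of the 18 fits, with the largest adjusted p without skin static 1 (0.217), tendon static 3 (0.176), skin static 3 (0.15) and tendon static 2 (0.122). In the other 3, without cornea static 3, skin flow 3 or tendon flow 3, it was 0.05 to 0.0508. Under flow that call was lost without skin flow 1 (adjusted p 0.0992), skin flow 3 (0.0561), tendon flow 2 (0.0976) or tendon flow 3 (0.0823). Tendon minus skin was -1.35 in the earlier and -1.76 in the later scan batch in static culture, and -1.77 and -1.94 under flow. Cornea minus skin was -1.60 in the later batch in static culture, and -2.27 and -2.01 in the earlier and later batch under flow.

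Cd59a encodes one of the mouse CD59 proteins, anchored in the membrane by a lipid. In static culture its probe set 1418710_at read 9.12, 9.56 and 9.19 in cornea, 9.33, 9.51 and 9.54 in skin, and 9.92, 9.56 and 9.86 in tendon. Under flow it read 9.39, 9.05 and 9.07 in cornea, 9.29, 9.34 and 9.19 in skin, and 9.65, 9.41 and 9.74 in tendon. In each state the 3 tendon libraries lay above the 6 of cornea and skin, by a narrow gap. Cornea minus tendon was -0.49 ± 0.14 (limma adjusted p 0.0963) in static culture and -0.43 ± 0.14 (0.23) under flow, and tendon minus skin was 0.32 ± 0.14 (0.49) and 0.33 ± 0.14 (0.663). None of these passed the threshold, and the static difference between cornea and tendon passed it without cornea static 2 or tendon static 2 (lowest adjusted p 0.0367, highest of the 18 fits 0.339). Its other probe set, 1429830_a_at, gave a cornea minus tendon difference of -0.54 ± 0.20 (limma adjusted p 0.227) in static culture and -0.30 ± 0.20 (0.747) under flow, with no overlap of the libraries in either state.

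Counted by comparison, 3 of the 5 measured genes were called between static cornea and static skin (Masp1, Serping1 and C2), where 2.44% of all genes were called. Between cornea and skin under flow the same 3 were called, against 1.90% of all genes. Between tendon and skin 1 of 5 was called in each state (Serping1), against 1.31% of genes in static culture and 0.995% under flow. Between cornea and tendon limma called 0 of 5 in each state, against 2.39% and 1.65% of genes, and 3 of 5 had an unadjusted p below 0.05 in each, beside 2367 (static) and 1660 (flow) of the 18193 genes. With culture day as a random block, a fit added after seeing the data, 1 of 5 was called between static cornea and static tendon (Masp1, limma adjusted p 0.0206). Under flow 2 of 5 were called (Masp1, limma adjusted p 0.0406, and C2, 0.0487). Of the 18193 genes, that fit called 513 between cornea and tendon in static culture and 381 under flow. Libraries of both groups did not overlap for 3 of 5 genes between cornea and skin (15.5% of all genes in static culture, 12.9% under flow) and for 3 of 5 between cornea and tendon (16.2% and 16.3%). Between tendon and skin this held for 2 of 5 (10.6% and 13.1%). Without tendon static 3, the library that stood apart, the count between static tendon and static skin was 0, and the other 5 counts of called genes between tissues stayed as they were. The comparisons of a state share their tissue groups, so their values are not independent of each other. Because the genes were chosen with earlier results of these data known, setting these counts beside all genes does not test the set.

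**Figure D2:**
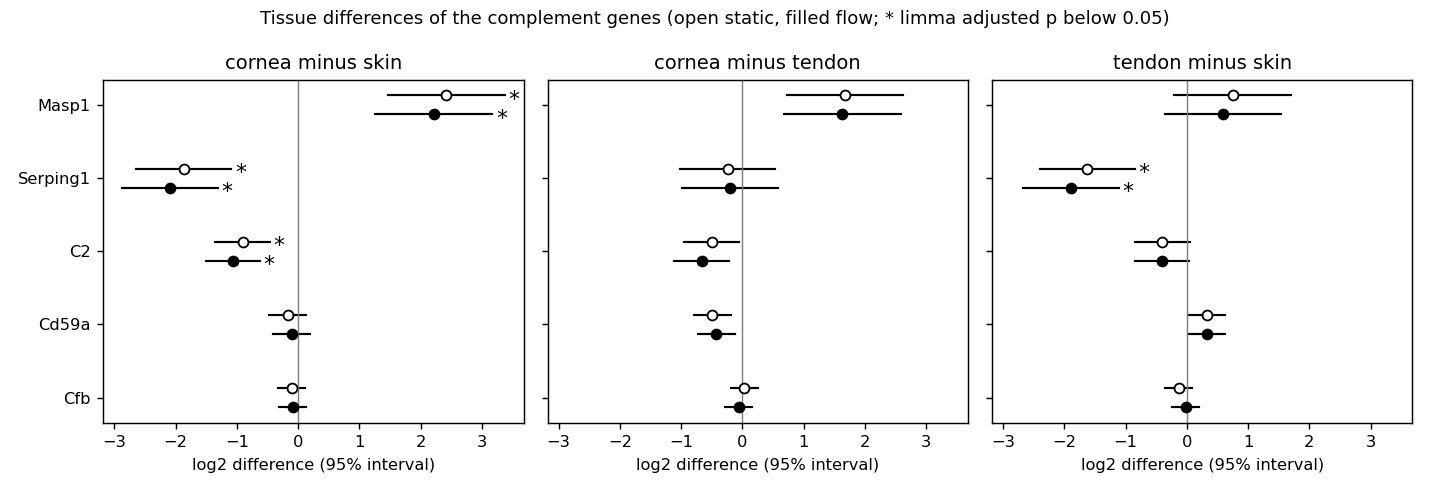
Differences between tissues in log2 units with 95% intervals from the limma fit, for the 5 measured genes in static culture (open) and under flow (filled), with a star at an adjusted p below 0.05. Masp1 lies to the right and Serping1 and C2 to the left of 0 between cornea and skin, Serping1 alone carries a star between tendon and skin, and no gene carries one between cornea and tendon.

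**Figure D3:**
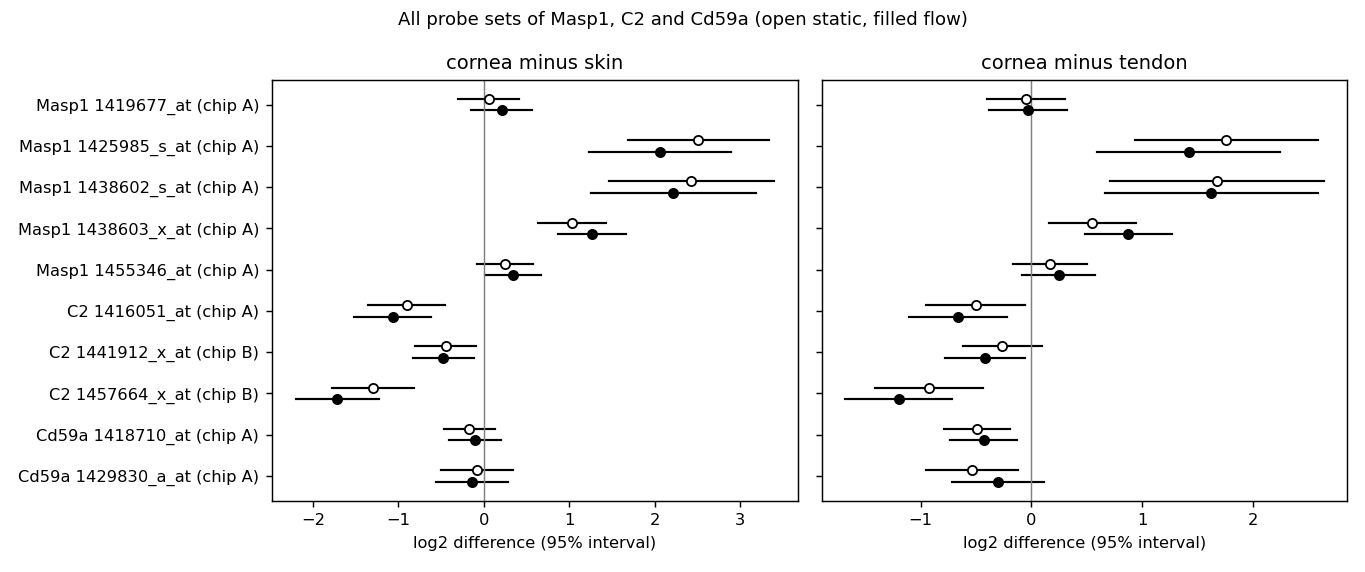
Differences in log2 units with 95% intervals for each probe set of Masp1, C2 and Cd59a, from the fit of all 35041 probe sets, static open and flow filled. Between cornea and skin, 3 Masp1 probe sets lie from 1.03 to 2.50 and the other 2 from 0.06 to 0.34, and the 3 C2 probe sets lie from -1.71 to -0.45.

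Flow for 14 h did not shift any of the 5 genes past the threshold in any tissue. Limma called 0 of 5 in cornea, skin and tendon, where 0.0275%, 0.0330% and 0.0605% of all genes were called, 0 of 5 in the average response (0.857%), and 0 of 5 for a difference between the responses of the tissues (0%). No member reached an unadjusted p below 0.05 in these comparisons, against 945, 518, 771, 1992 and 118 of all genes. For the test of a difference between tissues, the limma adjusted p was 1 for all 5 genes.

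Averaged over the 3 tissues, the flow minus static difference was negative for all 5 genes on the probe sets that represent them. The median over all genes was -0.011. Of their other sets, C2 1441912_x_at (0.04) and Masp1 1455346_at (0.08) gave positive averages, and the rest gave negative ones. On its representing set, C2 was at 0.03 in both skin and tendon. For Cfb the average was -0.11 ± 0.06 (95% interval -0.241 to 0.0133, limma adjusted p 0.524). The 3 flow libraries of Cfb lay below the 3 static ones in cornea and in skin, so 1 of 5 genes did not overlap there, against 10.4% and 7.91% of all genes, while in tendon 0 of 5 did so, against 8.04%. The average for Cd59a was -0.16 ± 0.08 (-0.337 to 0.0133, adjusted p 0.503). For Serping1 it was -0.26 ± 0.21 (-0.714 to 0.185, adjusted p 0.686), and for Masp1 -0.18 ± 0.26 (-0.730 to 0.369, adjusted p 0.827). C2 gave -0.02 ± 0.12 (-0.282 to 0.233, adjusted p 0.951).

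In the scan records, 6 pairs of 1 static and 1 flow library share a culture day. Cd59a was lower under flow in 6 of 6 pairs, by 0.0706 to 0.347, and in a fit of these 12 libraries alone, with culture day as a block, its average was -0.164 (limma adjusted p 0.322). Cfb and Serping1 were lower under flow in 5 of 6 pairs, and Masp1 and C2 in 4 of 6. These tallies were not set beside those of all genes. That fit, added after seeing the data, had 3 residual degrees of freedom and called 171 genes in the average response, of which 0 were among the 5 complement genes. With all 18 libraries, where the 5 without a noted day entered as 1 common block across the tissues, the average for Cd59a was -0.153 (limma adjusted p 0.167), 1279 genes were called, and again 0 of the 5.

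**Figure D4:**
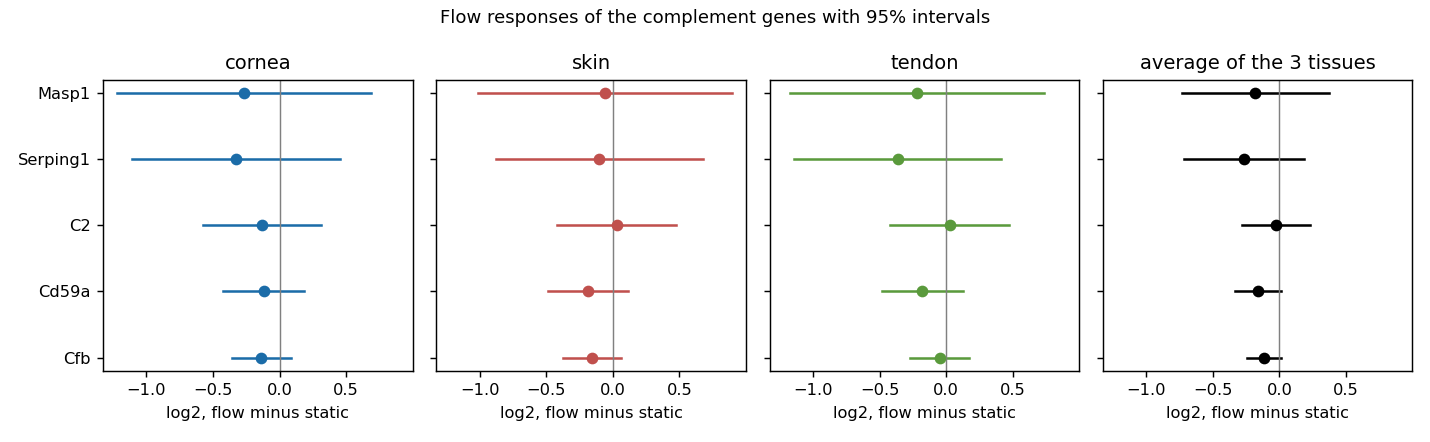
Flow minus static differences in log2 units with 95% intervals from the limma fit, for each measured gene in cornea, skin and tendon and for the average of the 3 tissues. Every interval includes 0, and those of Masp1 and Serping1 are the widest.

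The members differed in how far libraries of 1 group lay apart. The SD within groups was 0.638 for Masp1, 0.517 for Serping1, 0.281 for C2, 0.171 for Cd59a and 0.0951 for Cfb. Serping1 and C2 deviated from their group means together (r = 0.778 over the deviations of 18 libraries). Serping1 also moved with the C1 proteases that its product inhibits, with r = 0.898 to C1ra and 0.876 to C1s1. The mouse carries near-identical copies of both (C1rb and C1s2), so their probe sets may read either copy. Masp1 deviated the other way, with r = -0.707 to C1s1, -0.589 to C1ra, -0.73 to Cd55, the gene of decay-accelerating factor, and -0.33 to Serping1. These other genes were picked after their values were seen, and the points share libraries, culture days, scan batches and the scaling of the arrays. The 5 libraries of the earlier scan batch all lay above their group means for Serping1 (by 0.237 to 0.799), C2 (0.151 to 0.435) and C1s1 (0.204 to 0.824). For C1ra they lay at -0.0855 to 0.564. The part of the scan batch in these correlations was not tested. In skin static 2 and skin flow 2, Masp1 was 0.983 and 1.25 above its group means, C1s1 stood at -1.04 and -0.843 from its means, C1ra at -0.654 and -0.486, and Serping1 at -0.588 and -0.312. Both libraries of that culture day thus departed in the same direction for each of these genes. They also had the largest beta-actin difference between 3′ and 5′ probe sets, a sign of RNA length, of their groups (1.09 and 1.69). The other skin libraries had 0.716 and 0.637 in static culture, and 0.738 and 0.941 under flow. Its part in these deviations was not tested.

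**Figure D5:**
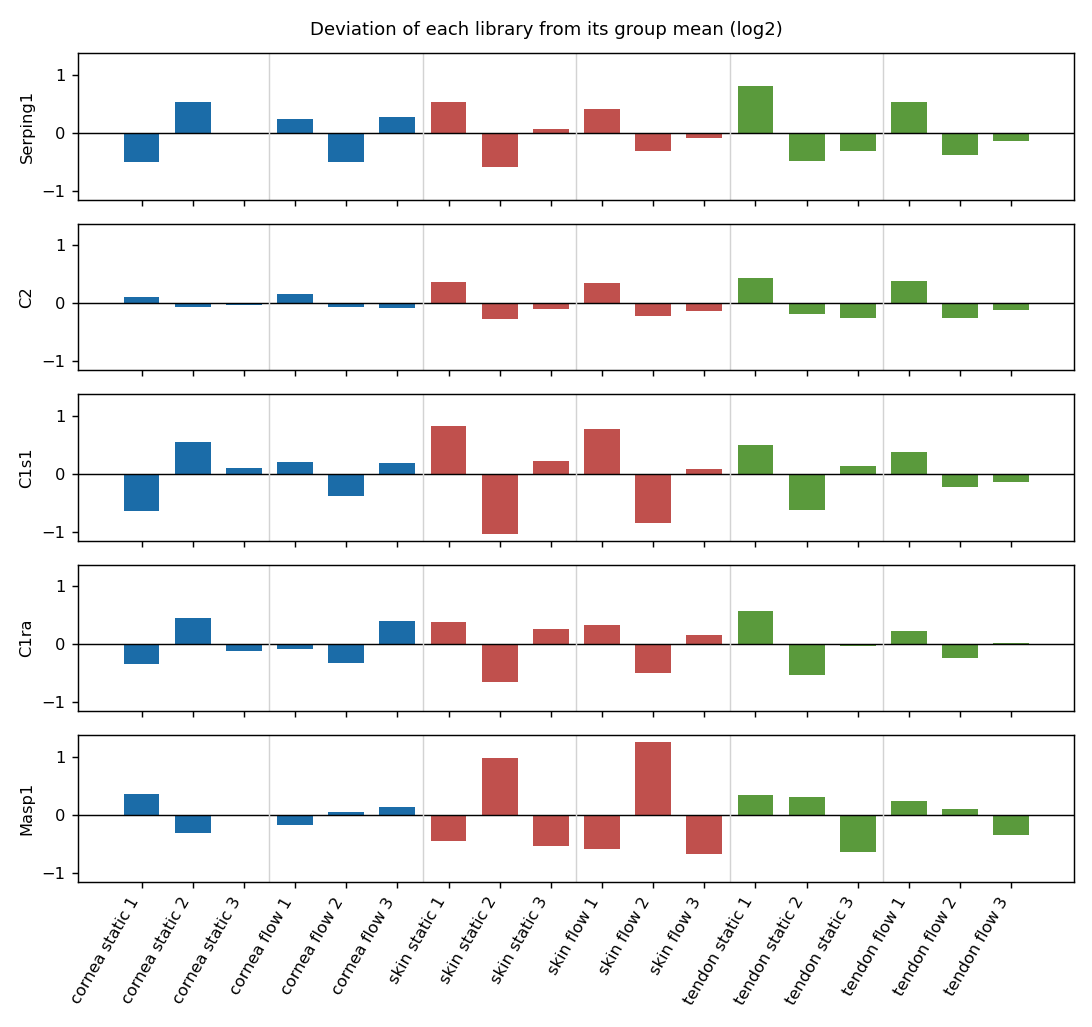
Deviation of each library from the mean of its group in log2 units for Serping1, C2, C1s1, C1ra and Masp1. Skin static 2 and skin flow 2 lie below 0 for Serping1, C2, C1s1 and C1ra and above 0 for Masp1.

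C1s1 and C1ra themselves were not called between tissues. C1s1 read 8.98, 7.12 and 8.37 in static skin and 7.40, 6.28 and 7.04 in static tendon, and tendon minus skin was -1.25 ± 0.45 (limma adjusted p 0.31). C1ra read 8.15, 7.11 and 8.03 in static skin and 7.27, 8.07 and 7.50 in static cornea, with a difference of -0.15 ± 0.32 (adjusted p 0.937). Cd55 read 6.73, 6.53 and 7.37 in static tendon and 5.56, 6.43 and 5.43 in static cornea, and cornea minus tendon was -1.07 ± 0.31 (adjusted p 0.0897).

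Among the other genes of the system, 43 were measured: 13 of the classical and lectin pathways, 1 of the alternative pathway, 6 of the terminal pathway, 15 regulators and 8 receptors. Of these 43, 1 was called between cornea and each other tissue, the regulator Clu, where 2.44% and 2.39% of all genes were called in static culture and 1.90% and 1.65% under flow. Clu encodes clusterin, a secreted chaperone that also binds the late complement components. It read 7.29, 7.82 and 8.28 in static cornea, 6.84, 6.84 and 6.60 in static skin, and 6.79, 6.61 and 6.62 in static tendon. Corneal libraries lay above all others, also under flow (7.55 to 8.11, against 6.62 to 6.80). The difference from skin was 1.04 ± 0.19 (limma adjusted p 0.00577) in static culture and 1.09 ± 0.19 (0.00408) under flow, and that from tendon was 1.13 ± 0.19 (0.00231) and 1.15 ± 0.19 (0.00249). Its 3 other probe sets, all with the suffix for probes that can match other transcripts, were called in the same comparisons and gave larger differences, from 1.57 to 2.36 against skin and from 1.58 to 2.47 against tendon. Between tendon and skin limma called 0 of 43, with 1 at an unadjusted p below 0.05 in static culture and 3 under flow, beside 1665 and 1176 of the 18193 genes. The median static difference between cornea and skin was -0.0398 for the 43 genes and -0.0326 for all genes, and between cornea and tendon it was -0.0309 and -0.0393. For flow, limma called 0 of 43 in any tissue or on average (3 at an unadjusted p below 0.05 on average, beside 1992 of all genes), and the median average response was -0.0714 beside -0.011 for all genes.

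Receptors and transcription factors that act on complement genes in other settings were read from a list of 19 measured genes. Lifr, a receptor chain for leukaemia inhibitory factor and oncostatin M, was highest in tendon in static culture. It read 7.41 to 8.29 in static tendon, 6.42 to 6.76 in static skin and 5.80 to 6.65 in static cornea. Its static cornea minus tendon difference was -1.50 ± 0.24 (limma adjusted p 0.00173) and its static tendon minus skin difference 1.17 ± 0.24 (0.0211), where 2.39% and 1.31% of all genes were called. Under flow Lifr was again called lower in cornea than in tendon (1.65% of all genes called), but it was not called between tendon and skin. Osmr, the oncostatin M receptor chain, was the 1 gene of the 19 called in the average flow response, with -0.39 ± 0.07 (adjusted p 0.0139), where 0.857% of all genes were called. It was also lower in tendon than in skin under flow, by a difference of -0.69 ± 0.12 (adjusted p 0.00862, 0.995% of all genes called). The other 17 were called in no comparison.

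Of 25 measured neighbours of C2 and Cfb in the class III region, limma called 0 in the static comparisons, with 2 to 3 at an unadjusted p below 0.05 in each, beside 1665 to 2367 of the 18193 genes. Under flow the heat shock genes Hspa1a and Hspa1b were higher in cornea than in skin, by 1.18 ± 0.29 (limma adjusted p 0.0497) and 1.15 ± 0.28 (0.0425), where 1.90% of all genes were called. These near-identical copies can share probes, so their values are uncertain as separate genes. Hspa1a was also higher in cornea than in tendon under flow (1.23 ± 0.29, adjusted p 0.0413, 1.65% of all genes called) and rose in the average flow response (1.03 ± 0.17, adjusted p 0.00568, 0.857% of all genes called).

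Markers of other cells were set beside the tissue differences. Of 13 measured leukocyte markers, 6 lay below the 25th percentile of chip levels, among them Ptprc, Cd68 and Aif1. The summed log2 level of the 13 was 78.99 to 80.88 in static cornea, 80.74 to 83.55 in static skin and 80.75 to 83.52 in static tendon, and 1 of 13 was called between cornea and skin under flow, Cd68, lower in cornea by 0.58 ± 0.14 (limma adjusted p 0.034). Of 7 muscle markers, Acta1 was higher in skin than in cornea and in tendon. Of the 10 fibroblast markers, Thy1 and Dcn were lower in cornea than in skin. Thy1 was also lower in cornea than in tendon under flow, and Fn1 was lower in static tendon than in static skin. Thy1 and Fn1 were both called between static cornea and static tendon, in opposite directions (1 higher and 1 lower in cornea). Mitf, of 5 Schwann and melanocyte markers, was lower in cornea than in tendon in both states. Of all genes, 2.44% (static) and 1.90% (flow) were called between cornea and skin, 2.39% and 1.65% between cornea and tendon, and 1.31% and 0.995% between tendon and skin. In static culture Thy1 stood at 11.15 ± 0.15 in cornea and 12.75 ± 0.22 in skin, and Dcn at 11.50 ± 0.12 and 12.57 ± 0.42 (SD, n = 3). The difference between the 3′ and 5′ probe sets of beta-actin, a sign of RNA length, was 0.774 to 0.972 in static cornea, 0.637 to 1.09 in static skin and 0.777 to 1.44 in static tendon. Under flow it was 0.937 to 0.991 in cornea, 0.738 to 1.69 in skin and 1.13 to 1.75 in tendon. The part of these markers in the differences of Masp1, Serping1 and C2 was not tested. With the beta-actin difference as a covariate, the calls of all 3 genes between cornea and skin held, and those of Serping1 between tendon and skin did not (limma adjusted p 0.104 static and 0.0512 flow).

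For each measured gene the chip A genes with the most similar profile over 18 libraries were taken from 12388 by Pearson's r. The 18 libraries include 3 tissues, so differences between tissues enter each r. Masp1 was closest to Unc5c (0.937), Ctnnd2 (0.901) and Dkk2 (0.894). Serping1 was closest to Rerg (0.954), Cxcl16 (0.946) and Pcsk5 (0.925), and C2 to Dpt (0.94), the gene of the matrix protein dermatopontin, Htra3 (0.935) and Lgr5 (0.928). Cd59a came closest to Khk (0.924), Clec14a (0.883) and Casp4 (0.872). Cfb, with its small spread, reached 0.828 with Hipk2 and 0.805 with both Fxyd7 and Smg6.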

How the data were processed

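Per the submitters' processing notes, the deposited log2 values come from RMA, which corrects background, normalises arrays by quantiles and summarises probe sets. The sources used here give neither its version nor the probe set definitions. The tables of the chips, 18 arrays each, were taken as normalised apart and were not scaled further. Gene names come from the platform annotation. Probe sets with several symbols or none were left out, as were control probe sets. A gene was represented by 1 probe set, taking chip A before chip B, a cross-hybridising (x) set only if no other existed, and then the highest mean over the 18 arrays.

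Each chip was fitted in limma 3.58.1 (R 4.3.3) with 6 groups and no covariate (12 residual and 4.58 prior degrees of freedom on chip A, 3.91 prior on chip B). p-values were adjusted over 18193 genes. A second fit took all 35041 probe sets with 1 symbol. The script was tested on simulated data. The number of arrays limits the precision. The files hold no detection calls, and all 5 genes lay above the 25th percentile of chip A levels (5.95), so no filter removed a member. All probe sets of the 7 genes were read whatever their values, and up to 4 called genes per list were named. The genes and lists were chosen with earlier results of these data known.

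Alternatives were median centring, a filter on dim probe sets, a trend in the variance prior, all probe sets, the brightest probe set, blocks for replicate number, scan batch and culture day, a beta-actin covariate and leaving out each library. Culture day as a random block, the culture day pairs alone, the later scan batch alone and both skin libraries numbered 2 left out were added after seeing the data.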

Additional observations from a re-analysis of the deposited data

How the results depend on the processing

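No alternative turned a call the other way. In the comparisons between tissues that follow, brackets give the number of all genes called in the same fit. Between static tendon and static skin the number of complement genes called was 1 (239). It fell to 0 with median-centred arrays (219), with the beta-actin covariate (177) and in the later scan batch alone (82). It rose to 2 without both skin libraries numbered 2 (262). Between tendon and skin under flow it fell from 1 (181) to 0 with the beta-actin covariate (143). Without both skin libraries numbered 2 it rose to 2 (177). Between static cornea and static tendon it rose from 0 (435) to 1 with a trend in the variance prior (435) and the beta-actin covariate (397). It also rose to 1 with culture day as a random block (513) and both skin libraries numbered 2 left out (449). With the replicate block it rose to 2 (537). Between cornea and tendon under flow it rose from 0 (300) to 1 with the scan batch block (371) and the beta-actin covariate (221). The same held with both skin libraries numbered 2 left out (319). It rose to 2 with culture day as a random block (381) and with the replicate block (354). Leaving out single libraries gave 1 to 3 between cornea and skin in each state, 0 to 1 between cornea and tendon in each state, 0 to 1 between tendon and skin in each state, and 0 for every flow comparison. The cause of these changes was not tested.

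In settings that kept all libraries, the complement genes gained between cornea and tendon were Masp1 and C2. Cd59a was gained in static culture without cornea static 2 (limma adjusted p 0.0367) or tendon static 2 (0.042). For Masp1 the limma adjusted p was 0.0499 with the variance trend, 0.0162 and 0.0225 with the beta-actin covariate (static and flow), and 0.0206 and 0.0406 with the random block. C2 was gained under flow with the scan batch block (adjusted p 0.00204) and the random block (0.0487). Replicate numbers were not taken to pair the samples, since not every pair correlated above 0.1: deviations of same-numbered static and flow libraries correlated at -0.218, -0.433 and 0.408 in cornea, 0.495, 0.763 and 0.57 in skin, and 0.622, 0.382 and 0.425 in tendon, so all 6 pairs of skin and tendon lay at 0.382 or more. The replicate block gave limma adjusted p 0.0245 and 0.0382 for Masp1 and 0.0325 and 0.00597 for C2 in cornea against tendon, static and flow. It left the number of complement genes called for flow at 0.

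Counts over all genes moved by over 1.5 times in some settings. In the later scan batch alone, 172, 216 and 82 genes were called between static cornea and skin, cornea and tendon, and tendon and skin, in place of 444, 435 and 239, and 140, 113 and 70 under flow, in place of 346, 300 and 181. The average flow response had 35 there in place of 156. The culture day block, run for the flow comparisons, took the 5 libraries without a noted day as 1 common block and called 70, 78, 234 and 1279 genes in cornea, skin, tendon and on average. The 12 libraries of the culture day pairs alone, with the same block, gave 0, 0, 6 and 171, and the later scan batch alone gave 0 in each of the 3 tissues, in place of 5, 6 and 11. In the other settings that kept all libraries, flow in cornea had 1 to 13, and flow in tendon had 19 with all probe sets tested and 17 with the beta-actin covariate. Without both skin libraries numbered 2, flow in cornea had 11 and flow in skin 3. Testing all 35041 probe sets, which are more features, called 668 and 779 of them between static cornea and static skin or tendon, and 525 and 478 under flow.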
